A study of Homo sapiens with 3 samples.

Results

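Chromosome 19, the most gene-dense human chromosome, was examined for the positions of HDAC1 in HepG2, an established line of human liver cancer cells. All HDAC1 summits listed on it were taken, 830 of 11553 in cells given H89 and 669 of 9476 in control cells. A summit is the single base at the top of a peak called from CUT&Tag, an assay in which an antibody brings a DNA-cutting transposase to the chromatin where its target protein sits. H89 is a small molecule that inhibits PKA, the protein kinase activated by cAMP. The H89 library and the control library (without H89) both came from wild-type HepG2 cells, with 1 library per condition, and the dose and duration of H89 are not given in the labels. An IgG library from cells without H89 belongs to the same series and was not analysed here, and the values therefore stand without an IgG background. Only the title of the series gives HDAC1 as the target. With 1 library per condition no difference has a replicate check, no test between H89 and control cells was possible, and a difference in library depth, which is unknown, cannot be told apart from one in occupancy. Intervals of shares, ratios and densities are exact (Clopper-Pearson for shares and ratios, Poisson for densities) at 95% and cover counting error only. The intervals printed at the end for differences of medians are not of these kinds. Most summits were shared between the lists, which the intervals of ratios ignore. The score of a summit is read as the −log10 of an unadjusted p-value. It was compared between the libraries as a difference, and differences up to 0.1 were treated as equal.

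HDAC1 is a class I histone deacetylase that removes acetyl groups from histone tails as the catalytic part of corepressor complexes such as NuRD, Sin3 and CoREST. It is commonly found at open, active promoters and enhancers as well as at repressed genes. Chromosome 19 carries large tandem clusters of C2H2 zinc finger genes, many of which encode KRAB repressors that recruit the cofactor TRIM28, and the bodies of many of these genes are known to carry the repressive mark H3K9me3. In the RefSeq gene table (GRCh38.p14), 255 of the 538 protein-coding genes with a ZNF or ZFP number as symbol lie on chromosome 19, 17.6% of its 1451 protein-coding genes. The longest row of such genes with no other protein-coding gene between them holds 27 genes, ZNF737 to ZNF681, which are known to lie in 19p12. Bands 19p12 and 19q13.41 to 19q13.43 are called the zinc finger cluster bands here, as a label. The other bands are not free of such genes: rows of 24 genes (ZNF627 to ZNF791), 24 genes (ZNF565 to ZNF793) and 20 genes (ZNF283 to ZNF180) are known to lie there, and none of 19q13.4 is longer. Summits were placed in the 19 bands of chromosome 19 on hg19. No gene annotation or sequence of that build was at hand, so no summit was assigned to a gene and no sequence is shown. Genes named for a band are background.

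Chromosome 19 held more HDAC1 summits per Mb than any other autosome or chromosome X in either library. Its density was 14.0 summits per Mb in H89 cells (interval 13.098 to 15.0) and 11.3 in control cells (10.5 to 12.2), while the other primary chromosomes together held 3.42 and 2.82 per Mb. Chromosome 17 came next in both libraries, with 10.7 per Mb in H89 cells and 8.82 in control cells. The chromosome makes up 1.91% of the primary chromosome sequence and held 7.18% of the H89 list (6.72% to 7.67%) and 7.06% of the control list (6.55% to 7.59%). The density was also higher within a staining class. The Giemsa-negative bands of chromosome 19, pale bands known to be gene-rich, held 19.2 H89 and 15.5 control summits per Mb, against 5.40 H89 and 4.43 control summits per Mb in Giemsa-negative bands of the other chromosomes. In the palest class of Giemsa-positive bands the values were 15.8 H89 and 12.7 control summits per Mb on chromosome 19, and 5.36 H89 and 4.28 control summits per Mb elsewhere. Gene density was higher as well, at 24.5 protein-coding genes per Mb on chromosome 19 and 14.4 on chromosome 17, with gene counts of GRCh38.p14 set over hg19 lengths. Per protein-coding gene chromosome 19 did not lead, with 0.572 H89 and 0.461 control summits. Chromosome 17 had 0.740 H89 and 0.612 control summits per gene. The values ran from 0.202 H89 and 0.150 control on chromosome X to 0.935 H89 and 0.814 control on chromosome 20. Differences in chromosome copy number in this cell line were not taken into account in densities or in summits per gene.

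HDAC1 summits were densest at the tip of the short arm and in a band inside the long arm, and absent or rare around the centromere. Band 19p13.3, the tip of the short arm, held 190 H89 and 139 control summits, or 27.5 H89 and 20.1 control summits per Mb. Band 19q13.32, where the apolipoprotein gene APOE lies, held 77 H89 and 63 control summits on 2.8 Mb, or 27.5 H89 and 22.5 control summits per Mb. Among the 822 bands of at least 1 Mb on the primary chromosomes, 19p13.3 ranked 1 by H89 density and 5 by control density, and 19q13.32 ranked 2 in both. Band 19p13.11 ranked 10 by H89 density and 7 by control density, with 83 H89 and 70 control summits. The densest Mb of the H89 list was the second Mb of the short arm (positions 1000001 to 2000000), with 43 H89 and 27 control summits. The densest of the control list ran from 45000001 to 46000000 in 19q13.32, with 37 H89 and 32 control summits.

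**Figure D1:**
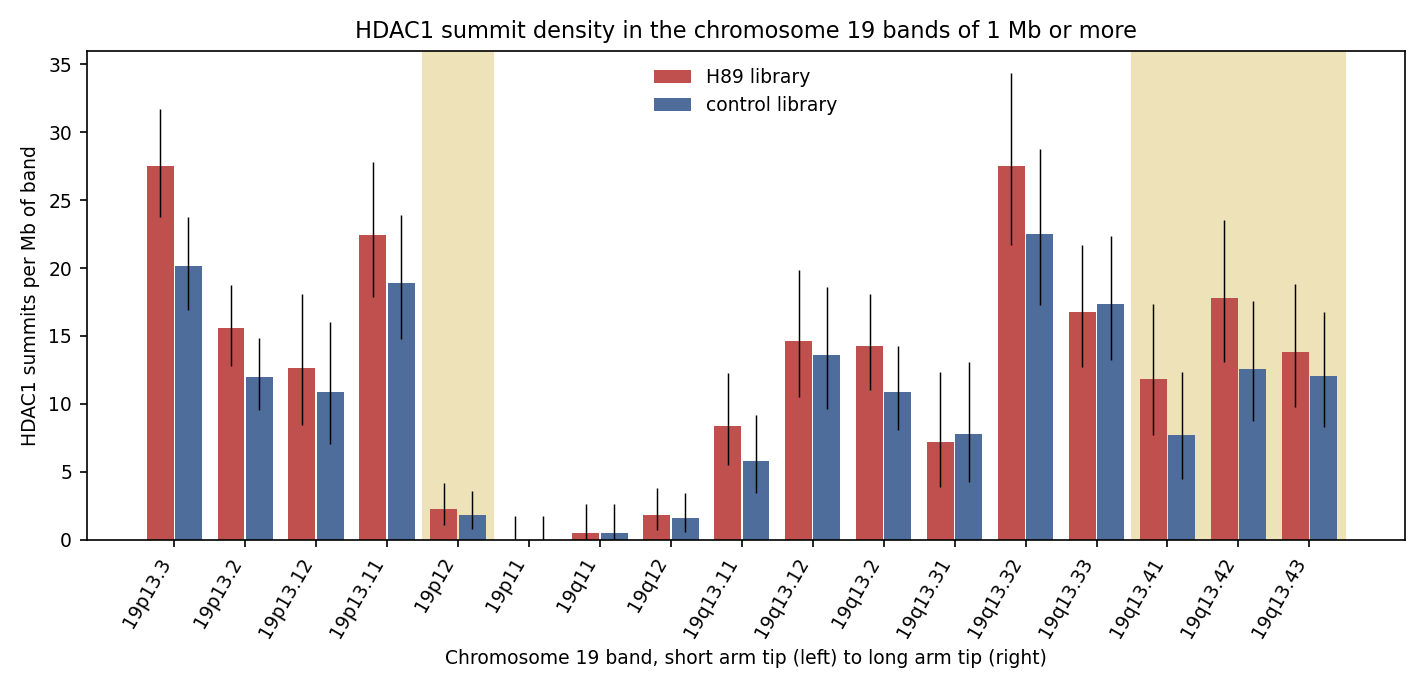
HDAC1 summits per Mb (vertical axis) in the chromosome 19 bands of at least 1 Mb, ordered from the short arm tip to the long arm tip, with H89 bars left of control bars. Lines are exact Poisson 95% intervals and the shaded bands are the zinc finger cluster bands: 19p12 held 2.27 H89 and 1.82 control summits per Mb, whereas 19q13.42 held 17.8 H89 and 12.6 control summits per Mb.

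The other bands with 10 or more summits in each library lay between these extremes. Band 19p13.2, where the insulin receptor gene INSR lies, held 109 H89 and 84 control summits (15.6 H89 and 12 control summits per Mb). Band 19p13.12 held 29 H89 and 25 control summits, 19q13.11 held 26 H89 and 18 control summits, and 19q13.12 held 41 H89 and 38 control summits. Band 19q13.2 held 67 H89 and 51 control summits, and 19q13.33 held 57 H89 and 59 control summits. Band 19q13.31 held 13 H89 and 14 control summits, or 7.22 H89 and 7.78 control summits per Mb, the lowest H89 density among the Giemsa-negative bands of at least 1 Mb on the chromosome. The short bands 19p13.13 (5 H89 and 6 control summits on 0.1 Mb) and 19q13.13 (2 H89 and 2 control summits on 0.4 Mb) held too few summits for a density to be read.

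The short arm was denser than the long arm, with intervals that just overlap in the control. It held 426 H89 and 332 control summits, 16.1 H89 summits per Mb (14.6 to 17.7) and 12.5 control summits per Mb (11.2 to 13.9). The long arm held 404 H89 and 337 control summits, 12.4 H89 summits per Mb (11.2 to 13.7) and 10.3 control summits per Mb (9.25 to 11.5). From 19p12 across the centromere to 19q12, a stretch of 12.4 Mb, there were 18 H89 and 15 control summits in all. Band 19p11 held none in either library, and 19q11 held a single site. Its summits, at 28284729 with H89 and 28284738 in the control, scored 12.3 in H89 cells and 7.67 in control cells. The widest stretch without a summit spanned 4.43 Mb in both libraries, from 23850759 to 28284729 in H89 cells and from 23850857 to 28284738 in control cells. The sites on both sides of this stretch were therefore the same in the H89 and the control library, each pair lying within 98 bp. The stretch of 1.81 Mb that follows, up to 30097318 in H89 cells and 30097354 in control cells, was also empty in both. In control cells a further stretch of 1.92 Mb inside 19p12, from 21512086 to 23432949, was empty, and H89 cells had a single summit there, at 22018892 with a score of 3.44. No summit can be called where hg19 lacks sequence or reads cannot be placed. How much of these stretches and of the centromeric bands that covers was not determined, so empty stretches are not read as absence of HDAC1.

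The zinc finger cluster bands did not behave as a single class: 19p12 was nearly empty of HDAC1 summits, whereas the density of 19q13.4 was far closer to, though below, that of the other bands. Band 19p12 held 10 H89 and 8 control summits on 4.4 Mb, a density of 2.27 per Mb in H89 cells (1.09 to 4.18) and 1.82 per Mb in control cells (0.785 to 3.58). Bands 19q13.41 to 19q13.43 together held 113 H89 and 85 control summits, a density of 14.6 per Mb in H89 cells (12.1 to 17.6) and 10.998 per Mb in control cells (8.78 to 13.6). The other chromosome 19 bands, which include the rows of zinc finger genes named above, held 15.0 H89 summits per Mb (13.9 to 16.2) and 12.3 control summits per Mb (11.3 to 13.298). Taken as 1 group, the zinc finger cluster bands had 0.674 times the H89 density (0.552 to 0.817) and 0.626 times the control density (0.497 to 0.780) of the other bands. At scores of 5 or more the H89 ratio was 0.835 (0.623 to 1.10), an interval that includes 1. The grouped ratio averages unlike bands, since over all scores it was 0.151 with H89 and 0.148 in the control for 19p12 alone, and 0.972 with H89 and 0.897 in the control for 19q13.4 alone. Bands of variable heterochromatin, the staining class of 19p12 and 19q12, held 0.374 H89 and 0.291 control summits per Mb on the other chromosomes. Band 19p12 stood above this pooled value of the class while far below its own chromosome. These densities use full band lengths. The part of each band that is sequenced in hg19 was not determined, so the comparison is not read as a difference in HDAC1. Many bands of the class held no summit in either library, and 31 of its 45 H89 and 25 of its 35 control summits elsewhere lay in Yq12 (1.01 H89 and 0.818 control summits per Mb). The densest band of the class off chromosome 19 was 16q11.2, with 1.07 H89 and 0.833 control summits per Mb. Band 19q12 held 7 H89 and 6 control summits, or 1.84 H89 and 1.58 control summits per Mb, close to 19p12.

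Scores in 19p12 were low to moderate. Its 10 H89 scores ran from 2.96 to 5.49 and its 8 control scores from 2.62 to 3.45. At 5 or more stood 3 of the 10 H89 summits, beside 46.2% of all H89 summits in the series. None of the 8 control summits did, beside 41.9% of all control summits. None reached 10 in either library, against 9.89% of all H89 and 6.49% of all control summits in the series. So few summits cannot show a lack of such scores. Of the 10 H89 summits 3 had no control summit within 1000 bp, where 27.8% of all H89 summits in the series had none, and of the 8 control summits 1 had no H89 summit within that distance, where 12.4% in the series had none. In the 7 one-to-one pairs, which are mutually nearest summits within 1000 bp, 5 scored higher with H89 by more than 0.1 and none scored higher in the control, while over all pairs of the series 50.2% had the higher score with H89 and 14.5% in the control. The pairs at 21324983 (control 21324890), 21511964 (control 21512086) and 23850759 (control 23850857) all scored 5.49 in H89 cells and 3.45 in control cells. These scores equal the upper tail of 3 counts in H89 cells and 2 counts in control cells under a single Poisson mean fitted to each list (0.0271 with H89 and 0.0269 in the control). The difference in these 3 pairs thus corresponds to 1 count step.

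Within 19q13.4 the strongest sites lay in 19q13.42 and 19q13.43. Band 19q13.42, which includes the leukocyte receptor complex of KIR and LILR genes, held 48 H89 and 34 control summits, 19q13.43 held 39 H89 and 34 control summits, and 19q13.41 held 26 H89 and 17 control summits. Of the 113 H89 summits of 19q13.4, 12 scored 10 or more, as did 6 of the 85 control summits. None reached 20 in either library. The highest pair, in 19q13.43, had its summit at 56652452 with H89 (score 16.95) and at 56652397 in the control (13.25). Near the tip, a pair at 59070195 with H89 and 59070171 in the control scored 15.2 in H89 cells and 10.8 in control cells. In 19q13.42 the pair at 54637476 with H89 and 54637462 in the control scored 13.8 in H89 cells and 13.9 in control cells, a difference within 0.1. The best pair of 19q13.41 lay at 53030621 with H89 (12.3) and 53030733 in the control (7.67).

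Control sites of 19q13.4 were nearly all called again with H89. Of its 85 control summits 81 had an H89 summit within 1000 bp (95.3%, interval 88.4 to 98.7), including all 17 of 19q13.41 and all 34 of 19q13.42. It was 87.6% over the series, and 86.3% (83.2 to 88.99) in the bands other than 19p12 and 19q13.4, with an interval that just overlaps. Of the 113 H89 summits of 19q13.4, 83 had a control partner (73.5%, 64.3 to 81.3), near the 72.2% of the series and the 70.4% (66.9 to 73.8) of the bands other than 19p12 and 19q13.4. Median scores in 19q13.4 were 5.08 with H89 and 4.77 in the control, against 4.24 with H89 and 3.88 in the control in the bands other than 19p12 and 19q13.4.

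Over the whole chromosome, most control sites were found with H89, and a larger part of the H89 sites had no control partner. Of 830 H89 summits 588 had a control summit within 1000 bp (70.8%, 67.6 to 73.9) and 242 did not, a share of 29.2% (26.1 to 32.4) beside 27.8% over the series. Of 669 control summits 585 had an H89 summit within that distance (87.4%, 84.7 to 89.9) and 84 did not, a share of 12.6% (10.1 to 15.3) beside 12.4% over the series. Both shares were near those of the series. The ratio of H89 to control summits was 1.24 (1.12 to 1.38) on chromosome 19 and 1.21 (1.18 to 1.25) on the other primary chromosomes. It was 1.28 (1.11 to 1.49) on the short arm and 1.20 (1.04 to 1.39) on the long arm.

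Sharing was more frequent at higher scores. Among chromosome 19 summits scoring from 2 up to 3, 96 of 209 H89 summits (45.9%) and 131 of 177 control summits (74.0%) had a partner. From 5 up to 7 the shares were 83.0% of 147 H89 summits and 93.4% of 122 control summits. From 10 up to 20 they were 75 of 77 H89 summits and all 33 control summits, and at 20 or more all 9 H89 and all 5 control summits were shared. The summits without a partner had a median score of 3.36 with H89, against 5.49 for shared H89 summits. Control summits without a partner had a median of 2.97, against 4.77 for shared ones.

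**Figure D2:**
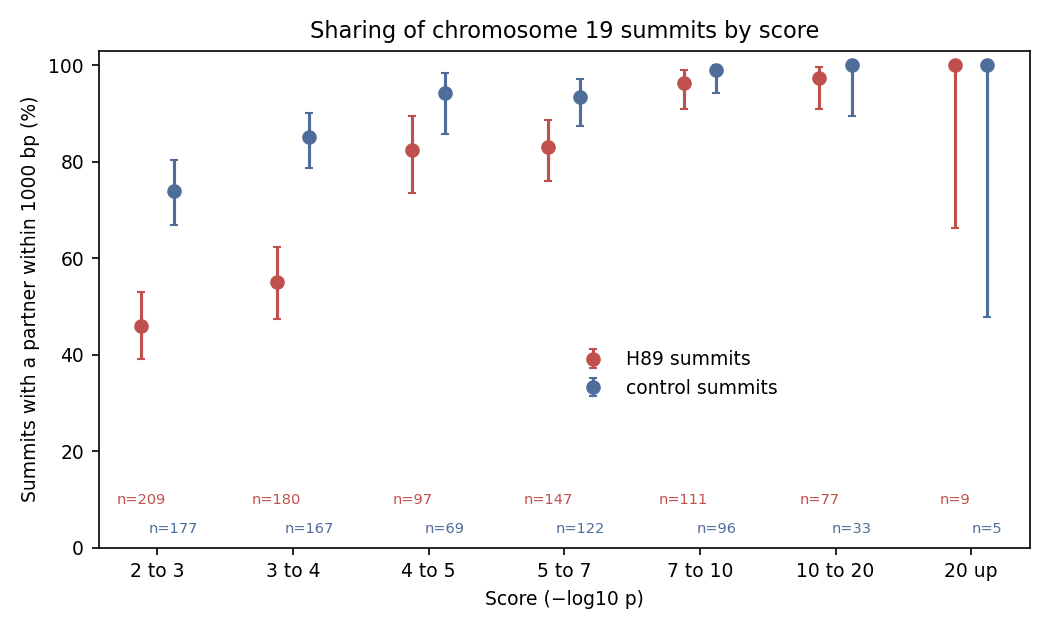
Share of chromosome 19 summits with a summit of the other library within 1000 bp (vertical axis, percent) by score class (−log10 p), H89 left of control, with exact 95% intervals and the number of summits in each class. The share runs from 45.9% of H89 and 74.0% of control summits in the lowest class to 100% of 9 H89 and 5 control summits in the highest.

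H89-only sites took a larger share of the short arm than of the long arm, with intervals that overlap. They made up 137 of 426 H89 summits there (32.2%, 27.7 to 36.8) and 105 of 404 on the long arm (26.0%, 21.8 to 30.6), beside 27.8% over the series, which lies within the interval of each arm. Control-only sites took similar shares of both arms, 41 of 332 on the short arm (12.3%) and 43 of 337 on the long arm (12.8%), both near the 12.4% of the series. Band 19p13.3 alone held 69 of the 242 H89-only summits, 36.3% of its H89 summits (29.5 to 43.6, above the 27.8% of the series). The highest H89-only summits also lay there, at 426661 with a score of 10.8, 30.5 kb from the nearest control summit, and at 4247584 with a score of 10.7, 63.2 kb from the nearest. They were the only H89 summits of 10 or more on the chromosome without a control partner. The next 3 were at 9420675 in 19p13.2 (score 7.66, nearest control summit 476 kb away), 51849171 in 19q13.41 (7.66, 6.15 kb away) and 59086920 in 19q13.43 (7.36, 2.22 kb away). The highest control-only summit, at 199957 in 19p13.3, scored 7.29 and lay 1.28 kb from an H89 summit, just past the pairing distance. The next 7 tied at 5.50.

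Band 19q13.33 was the exception among the dense bands, with more control than H89 summits. Of its 59 control summits 17 lacked an H89 partner (28.8%, 17.8 to 42.1), beside 12.4% over the series, and 14 of its 57 H89 summits lacked a control partner (24.6%). The ratio of H89 to control summits was 0.966 (0.659 to 1.41). This band was singled out after its values were seen. Its 17 control-only summits scored from 2.17 to 5.50, and each lay at least 4.58 kb from the nearest H89 summit.

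Of these 17, 5 stood in an evenly spaced row at 50610683, 50615993, 50621413, 50626743 and 50632027. The gaps between them were 5.31, 5.42, 5.33 and 5.28 kb, and their scores were 2.17, 2.51, 2.51, 2.51 and 2.73. No H89 summit lay within 14.7 kb of any of them. A search for 4 or more successive summits with gaps under 15 kb that differ by at most 6%, set after this row was seen, found no other such row in the control list and none in the H89 list, on chromosome 19 or elsewhere. Band 19q13.33 is known to carry tandem arrays of snaR genes, which encode short noncoding RNAs, and 26 of the 28 SNAR genes in the RefSeq table lie on chromosome 19. They include a row of 10 neighbours from SNAR-A12 to SNAR-C1 and another of 10 from SNAR-A4 to SNAR-B1. Whether the summits fall in such an array was not determined, and whether reads that map equally well to several repeat copies were kept is not given in the sources used here. Without these 5 summits the band held 57 H89 and 54 control summits, a ratio of 1.06 (0.715 to 1.56), and 12 of the 54 control summits (22.2%, 12.04 to 35.6) lacked an H89 partner.

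Paired sites leaned towards a higher score in H89 cells. Chromosome 19 held 582 one-to-one pairs. Of these 306 scored higher with H89 by more than 0.1 (52.6%, 48.4 to 56.7), beside 50.2% over the series. A further 95 scored higher in the control (16.3%, 13.412 to 19.6), beside 14.5% over the series, and 181 lay within 0.1. The median difference was 0.82, against 0.20 over the series. The quartiles of the difference were -0.01 and 2.04 on chromosome 19, so medians here can shift widely with small changes in these shares. Among chromosomes 1 to 22 and X the median ran from -0.0067 on chromosome 15 to 1.45 on chromosome 21, and chromosome 19 ranked 8. The short arm had 158 of 288 pairs higher with H89 (54.9%) and 37 with the higher score in the control (12.8%). Its median difference was 1.08. The long arm had 148 of 294 pairs higher with H89 (50.3%) and 58 with the higher score in the control (19.7%). Its median difference was 0.26.

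Stronger pairs leaned further to H89. At mean scores of 10 or more there were 61 pairs, of which 47 scored higher with H89 and 5 in the control. Their median difference was 2.33. At mean scores from 2 up to 4 there were 210 pairs, of which 72 scored higher with H89 and 41 in the control. The series showed the same gradient: 75.4% of its pairs at 10 or more and 31.0% at 2 up to 4 had the higher score with H89, near the 77.0% and 34.3% of chromosome 19. If counts differed by the same factor at every site, score differences would also grow with the score, so the gradient is no measure of how much single sites differed. At a score of 10 or more the chromosome held 86 H89 and 38 control summits, a ratio of 2.26 (1.53 to 3.41), beside 1.83 (1.64 to 2.03) on the other primary chromosomes. Those 86 were 10.4% of H89 summits, beside 9.89% over the series, and the 38 were 5.68% of control summits, beside 6.49%. The step of 5 counts, at 9.92 with H89 and 9.94 in the control, lies just below this minimum. It held 14 H89 and 17 control summits of the chromosome, so the ratio of 2.26 depends on where the minimum falls. In 36 pairs both scores were 10 or more. In 48 pairs the H89 score reached 10 and the control score did not, and 45 of these 48 control scores were at least 5, with a median of 8.70. The reverse held for 2 pairs.

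**Figure D3:**
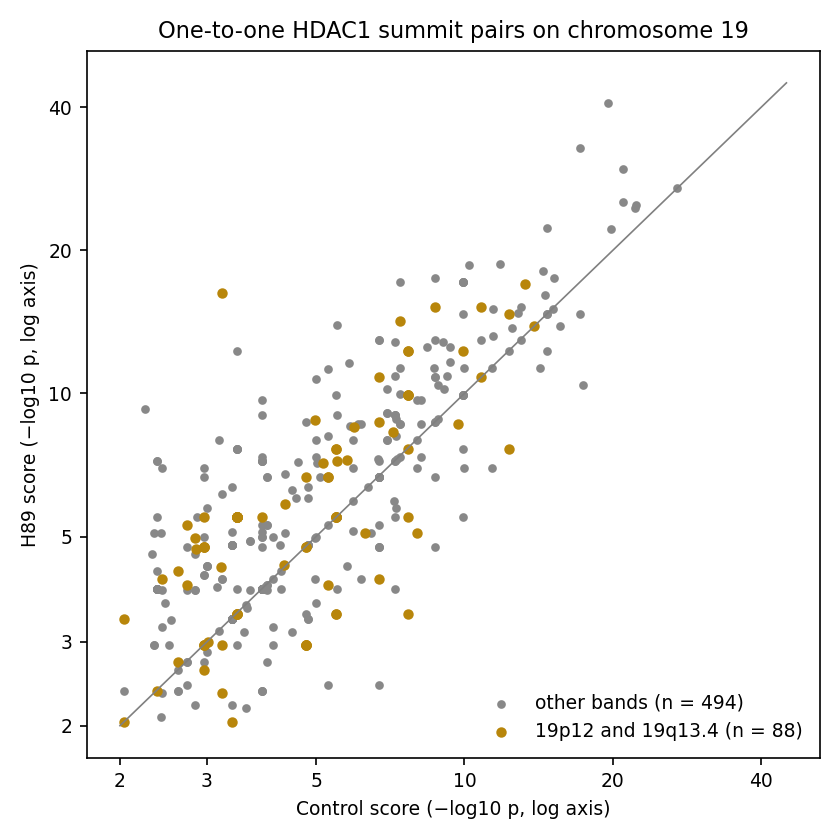
Scores of the 582 one-to-one pairs on chromosome 19, H89 on the vertical and control on the horizontal axis (−log10 p, both log axes), with the line of equal scores. The 88 pairs of 19p12 and 19q13.4 lie among the 494 pairs of the other bands and reach 16.95 with H89 and 13.9 in the control, while 9 H89 scores of other bands exceed 20.

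Where both scores fell on the count steps of the fitted means, the differences were mostly of 0 or 1 step. Of 148 such pairs on chromosome 19, 54 stood on the same step in both libraries, 55 stood 1 step higher with H89, 19 stood at least 2 steps higher with H89 and 20 stood lower with H89. Over the series, 42.5% of 3359 such pairs stood on the same step and 31.4% stood 1 step higher with H89, against 36.5% (28.7 to 44.8) and 37.2% (29.4 to 45.5) on chromosome 19.

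The strongest shared sites of the chromosome were spread over 6 bands, and the size of the score difference varied among them. The highest mean score belonged to a site in 19p13.3, with its summit at 5904547 with H89 (score 40.8) and 5904478 in the control (19.5). A site in 19q13.32, at 45304155 with H89 (32.9) and 45304162 in the control (17.2), had the second largest difference, 15.7. A site in 19p13.2, at 9929930 with H89 (29.7) and 9930077 in the control (21.0), differed by 8.68. By contrast, the strongest control site, at 11485584 with H89 and 11485530 in the control, also in 19p13.2, scored 27.0 in both libraries.

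The other 6 of the 10 strongest pairs by mean score were also higher with H89, by smaller amounts in most. The sites at 42364077 with H89 (24.8; control 42364029, 22.3) and 41769960 with H89 (17.5; control 41769994, 15.2) in 19q13.2 differed by 2.58 and 2.25. The site at 605502 with H89 (24.6; control 605552, 22.2) in 19p13.3 differed by 2.36, and that at 17451663 with H89 (25.3; control 17451692, 21.0) in 19p13.11 by 4.26. In 19q13.33 the sites at 50380767 with H89 (22.2; control 50381069, 19.8) and 49496842 with H89 (22.2; control 49496938, 14.7) differed by 2.33 and 7.54. The H89 score enters the mean, so this choice favours sites that score high with H89.

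Some sites of low or moderate score in control cells scored high with H89. The third largest difference, 13.02, was in 19q13.42, at 54975266 with H89 (16.3) and 54975398 in the control (3.23). A site in 19p13.2 scored 17.1 at 10828477 with H89 and 7.39 at 10828469 in the control, and a site in 19p13.3 scored 12.3 at 5828138 with H89 and 3.45 at 5828133 in the control. The largest differences in the other direction were smaller. A site in 19p13.3 scored 10.4 at 674701 with H89 and 17.4 at 674671 in the control. In 19q13.42 a site scored 7.66 at 53934890 with H89 and 12.3 at 53934940 in the control. The next 3 differed by -4.45 (12035876 with H89, 19p13.2), -4.41 (6719036 with H89, 19p13.3) and -4.27 (35224935 with H89, 19q13.11).

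**Figure D4:**
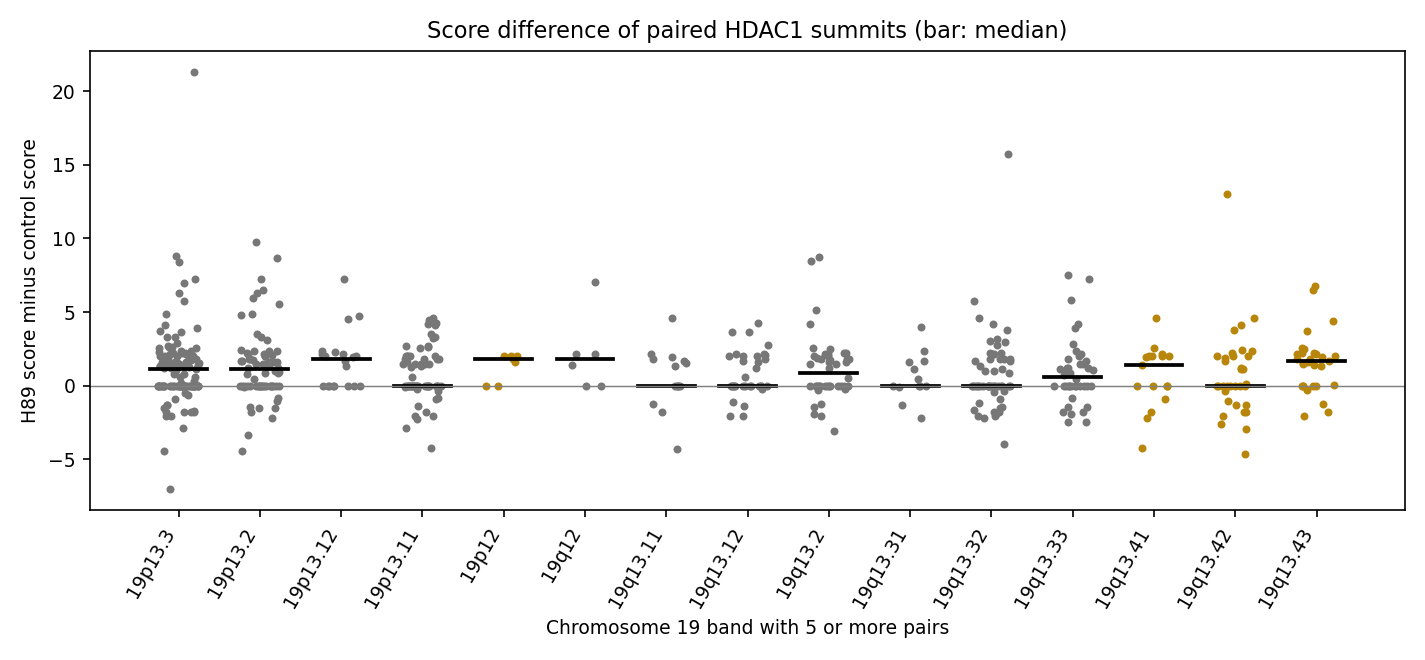
H89 score minus control score (vertical axis, −log10 p units) of each pair, by band from the short arm tip to the long arm tip, for bands with 5 or more pairs. Points are pairs, bars are medians and zinc finger cluster bands are in gold: the medians range from -0.01 in bands such as 19q13.32 to 1.81 in 19p13.12, and the highest point, 21.3, lies in 19p13.3.

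How pairs leaned was spread over the bands around the series shares of 50.2% higher with H89 and 14.5% with the higher control score. In 19p13.12, 12 of 20 pairs scored higher with H89 and none in the control, and in 19p13.2, 42 of 72 scored higher with H89 and 9 in the control. In 19q13.32, by contrast, 24 of 57 pairs scored higher with H89 and 14 in the control. In 19q13.42, 16 of 34 scored higher with H89 and 10 in the control, while in the neighbouring 19q13.43, 20 of 30 scored higher with H89 and 4 in the control. The intervals of the H89 shares are wide (36.1% to 80.9% in 19p13.12, 29.8% to 64.9% in 19q13.42) and cover the series share there, and the differences between bands were not tested.

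Paired summits lay close together. The median offset was 53 bp on chromosome 19, and 53 bp on the other primary chromosomes. Of the 582 pairs 409 lay within 100 bp, 9 fell on the identical base and 4 lay over 500 bp apart. The offset was smaller for stronger pairs, with a median of 77 bp at mean scores from 2 up to 4 and 36 bp at 10 or more. Over the series these medians were 76 and 31 bp.

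A larger share of H89 summits stood in runs on chromosome 19 than elsewhere, a difference that was not tested. Counting as a run any summits each within 5 kb of the next in the same library, 261 of 830 H89 summits (31.4%, 28.3 to 34.7) stood in 115 runs of at least 2, against 24.0% (23.1 to 24.8) on the other primary chromosomes. For control summits the shares were 22.3% (19.2 to 25.6) on chromosome 19, in 64 runs, and 21.3% (20.4 to 22.2) elsewhere. Summits on chromosome 19 also lay closer in general, with a median gap of 30.3 kb with H89 and 36.6 kb in the control, against 57.3 kb with H89 and 71.1 kb in the control elsewhere, and the part of this spacing in the run counts was not tested. Among H89-only summits of chromosome 19, 86 of 242 (35.5%, 29.5 to 41.9) had another H89 summit within 5 kb, against 22.5% (21.0 to 24.0) of H89-only summits elsewhere. Among H89 summits with a control partner the share was also higher on chromosome 19, 175 of 588 (29.8%, 26.1 to 33.6), against 24.5% (23.6 to 25.5) elsewhere. On chromosome 19 the intervals of H89-only and partnered summits overlap.

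The longest run was in 19p13.3, with 6 H89 summits from 1857345 to 1875930, scoring from 2.03 to 13.9. The control library had 4 summits in that stretch or within 1000 bp of it. In 19q13.32 a run of 5 H89 summits spanned 46377473 to 46389893, where the control library also had 4. The longest control runs held 4 summits. They included one from 674671 to 680821 in 19p13.3, which carries the site with the largest difference in favour of the control, and one from 17443621 to 17451692 in 19p13.11, which carries the strong shared site of that band.

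More of the scores on chromosome 19 were low than on the other primary chromosomes pooled. The median score was 4.34 with H89 and 3.93 in the control, against 4.76 with H89 and 4.77 in the control on the other primary chromosomes. Scores below 3 made up 25.2% of H89 summits (22.3 to 28.3) and 26.5% of control summits (23.2 to 30.0) on chromosome 19, against 18.8% (18.1 to 19.6) of H89 and 20.6% (19.7 to 21.4) of control summits elsewhere. Chromosome 16 was near it, with 23.3% of H89 and 26.9% of control summits below 3, and control medians lower than that of chromosome 19 were found on chromosomes 3, 21 and 22 (3.88 each) and X (3.45). A smaller part of its scores fell on the steps of the single fitted mean. That part was 26.3% with H89 (23.3 to 29.4) and 25.9% in the control (22.6 to 29.4), against 42.8% with H89 and 43.0% in the control on the other primary chromosomes. Chromosome 19 ranked 22 of the 23 chromosomes by this share with H89, above chromosome 16 only, and 23 in the control. Under the reading of the score as a Poisson tail, a score off these steps was computed against another expected count than the commonest one.

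**Figure D5:**
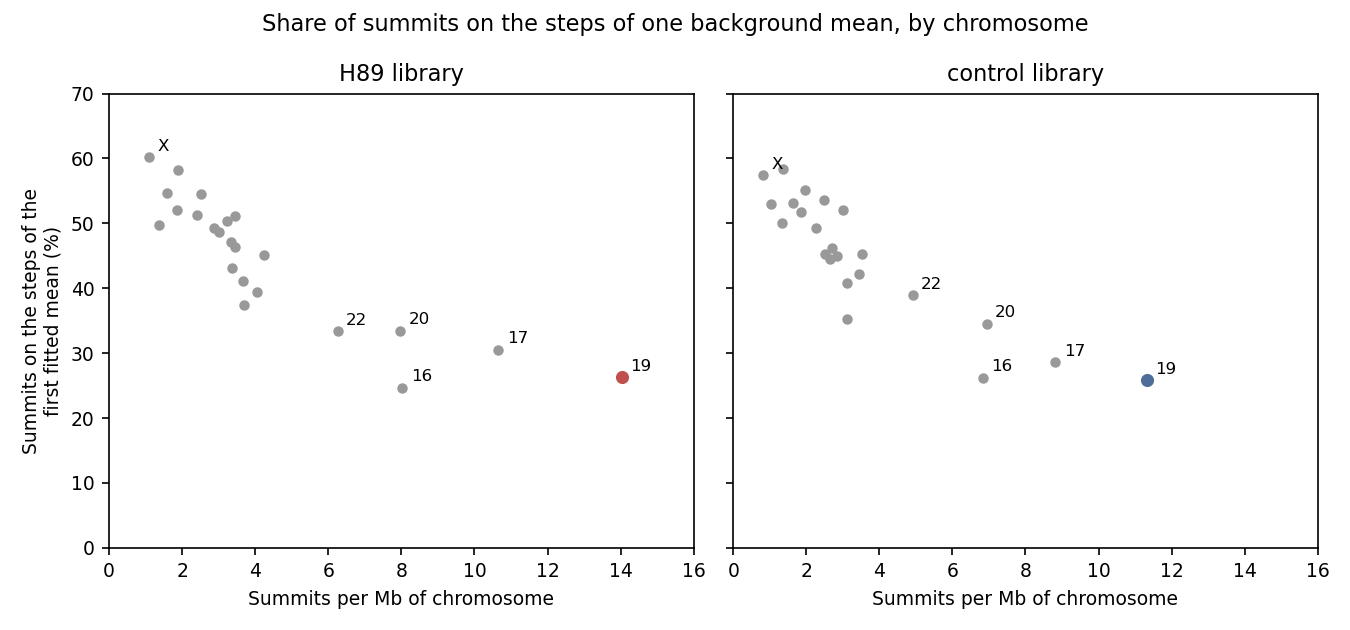
Share of summits whose score lies on the count steps of the single fitted Poisson mean (vertical axis, percent) against summits per Mb (horizontal axis) for chromosomes 1 to 22 and X, H89 on the left and control on the right. Chromosome 19 lies at the right with 14.0 summits per Mb and 26.3% in H89 cells and 11.3 summits per Mb and 25.9% in control cells.

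Within the chromosome this share varied between bands and tended to be lower in denser bands, a relation that was not tested. The share was 15.8% with H89 (10.9 to 21.8) and 18.7% in the control (12.6 to 26.2) in 19p13.3, the band with the most summits. With H89 it was 24.7% in 19q13.32 and 21.7% in 19p13.11, against 41.4% in 19p13.12 and 60% of 10 summits in 19p12. Single bands departed from this: 19q13.42 (17.8 H89 summits per Mb) and 19q13.2 (14.3) had shares of 37.5% and 19.4% with H89. In 19q13.41 the share was 69.2% of 26 H89 summits (48.2 to 85.7) and 58.8% of 17 control summits (32.9 to 81.6). Over all zinc finger cluster bands it was 44.7% with H89 (35.7 to 53.9) and 36.6% in the control (26.8 to 47.2), against 23.1% with H89 (19.998 to 26.3) and 24.1% in the control (20.7 to 27.8) in the other bands. The higher median scores of 19q13.4 stand beside this difference, and its part in them was not tested.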

How the data were processed

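CUT&Tag summits of 2 HDAC1 libraries were used (H89 and control, 1 each). Bowtie 0.12.2 and the hg19 build are named in the submitters' processing notes. Neither the peak caller, its control library and threshold nor the treatment of duplicate or multiply mapping reads is given in the sources used here. The authors deposited 1 list per library, called per library as the peak names show, with a 1-bp position and a score. The deposited score is read as −log10 p from its values. A Poisson mean was fitted so that 3 counts gave the commonest score between 5 and 6, and it predicted the commonest scores at 2 to 7 counts to within 3.28e-05, and a score counted as on a step within 0.001. Lists were assigned to libraries by the control and treated names in the peak names. Depth is unknown.

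Positions are 1-based on hg19, and bands came from the hg19 band table of circlize 0.4.16. A partner lies within 1000 bp, and pairs are mutually nearest summits. Densities, ratios and shares were computed with scipy 1.17.1, pandas 2.3.3 and numpy 2.4.6 under Python 3.11.15, and drawn with matplotlib 3.10.9. Pairing and merging were tested on simulated data. Named sites are the 10 pairs with the highest mean score, the 5 with the largest difference in each direction, the 5 highest summits without a partner in each list, the 2 highest pairs per band, the 3 densest runs and the 3 widest gaps, of which a part is printed. The evenly spaced row, the single-band comparisons and the step shares were chosen after their values were seen. The chromosome, bands and sites were chosen with earlier results of these data known. The RefSeq gene table describes GRCh38.p14 and served for gene names, counts and neighbours only. Alternatives were higher score minimums, merging within 500 bp, other pairing distances, other limits for equal scores and other band groups.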

Additional observations from a re-analysis of the deposited data

How the results depend on the processing

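On chromosome 19 the ratio of H89 to control summits was 1.34 at scores of 5 or more and 1.24 with summits within 500 bp merged. It moved to 2.26 at scores of 10 or more, a minimum that was chosen after seeing the data and lies just above a count step. How many summits had a partner changed with the distance allowed: 1.08% of H89 and 1.35% of control summits on the identical base, 49.3% of H89 and 61.1% of control summits within 100 bp, and little change at 500 or 2000 bp. With only scores of 5 or more in both lists the H89 share was 65.1% and 60.7% of pairs were higher with H89. On the identical base 66.7% of the 9 pairs were higher with H89. The density of the zinc finger cluster bands relative to the others depended on the bands: for 19p12 alone it was 0.151 with H89 and 0.148 in the control, and for 19q13.41 to 19q13.43 alone 0.972 with H89 and 0.897 in the control. At scores of 5 or more it was 0.835 with H89 (0.623 to 1.10) and 0.696 in the control (0.482 to 0.983), and at 10 or more 0.628 with H89 (0.311 to 1.16) and 0.727 in the control (0.248 to 1.76), so that the lower H89 density no longer excluded a ratio of 1 under either minimum. The median score of the zinc finger cluster bands exceeded that of the other bands by 0.73 with H89 (interval -0.16 to 1.25) and by 0.89 in the control (-0.43 to 1.41). For 19p12 alone the difference was -0.40 with H89 and -0.92 in the control. No paired analysis was possible because each condition has a single library. The cause of each shift was not tested. Unknown depth and the missing hg19 annotation limit all of these values.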
